A study of Mus musculus with 15 samples.

Results

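Smooth muscle cells taken from the mouse aorta were set against the day 13 cells of a stem cell differentiation culture that did not show the smooth muscle reporter. The comparison used 6 of the 15 samples of the series, chosen by their labels alone, and all 25206 probe sets of the array. The 3 aortic samples, numbered 1, 2 and 3, were primary aortic smooth muscle cells sorted as positive for Acta2hrGFP, a green fluorescent reporter of Acta2, the gene of smooth muscle alpha-actin. The 3 day 13 samples, numbered 3, 5 and 6, came from induced pluripotent stem cells (iPSC) of 1 line that carries the same reporter and were sorted as GFP-. The study followed that line from undifferentiated iPSC (day 0) over sorted Kdr+ mesodermal progenitors (day 5) to GFP+ and GFP- cells (day 13), and used the aortic cells as a positive control. Each group had 3 samples, which the study calls biological triplicates, and gene expression was read on Mouse Gene 2.0 ST expression arrays.

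Several features limit these groups as models. Both were defined by a reporter of a single gene, so the GFP- sort holds every day 13 cell whose reporter was dim, of whatever type. All cultured samples derive from 1 reporter line. The sources used here give no age, sex, strain or number of animals for the aortic cells and do not say whether those cells were cultured before the RNA was taken. Tissue of origin, time in culture and developmental age therefore cannot be told apart in this comparison. In a bulk RNA sample, fewer cells of a type and less RNA per cell cannot be told apart either.

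Smooth muscle cells of the artery wall contract through an actin and myosin apparatus whose genes are driven by serum response factor (SRF) and its partner myocardin. In the adult artery the cells rarely divide, keep a set of ion channels and receptors that set vessel tone, and maintain elastic and collagen fibres. Cells in a differentiation culture pass through mesoderm, divide, and express genes of fetal growth, many of them imprinted, which means that only the copy from one parent is used.

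All values below are on the log2 scale of the deposited arrays, where a difference of 1 is a doubling. Unless stated otherwise, a difference is the aortic mean minus the day 13 GFP- mean, tested with limma in 1 model of all 15 samples. A gene is called higher or lower only where its p, adjusted over all 25206 probe sets, was under 0.05. At this threshold 10556 probe sets differed (41.9%), of which 5089 were higher in the aortic cells (20.2% of all) and 5467 were lower (21.7%). The difference reached 2-fold in 1963 of the higher and 2433 of the lower probe sets, and 16-fold in 148 and 62. The 3 aortic values lay wholly above or below the 3 GFP- values in 11857 probe sets (47%). The same model called 1142 probe sets between the day 13 sorts, GFP+ against GFP- (4.53%), and 9372 between aortic and day 13 GFP+ cells (37.2%). The GFP+ and GFP- samples carry the same numbers, and with the number as a block the sorts differed in 1798 probe sets (7.13%), which included all 1142. Counts between the sorts are also given with that block where it changed them. The median difference over all probe sets was 0.093.

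The shares of higher and lower probe sets differed with the level. Probe sets were put in 4 equal classes by mean level. In the highest class (above 6.05), 23% were higher and 41.4% lower in the aortic cells. In the lowest class (up to 2.9), 14.6% were higher and 1.24% lower. The files give no detection calls, so a level in that range is not shown to lie above background, and a fold against it may be set by the array's lowest readable signal.

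Samples of a group were alike but not equal. Correlations across probe sets, which are not independent replicates, were 0.977 to 0.979 among the aortic samples, 0.977 to 0.995 among the GFP- samples and 0.869 to 0.888 between the groups. Day 13 GFP- sample 3 stood apart, with 877 probe sets more than 1 unit from the mean of its 2 fellows, against 106 for sample 5 and 130 for sample 6. In the aortic group these counts were 399, 392 and 446 for samples 1, 2 and 3. Results that rest on GFP- sample 3 or on 1 aortic sample are given without it as well.

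**Figure D1:**
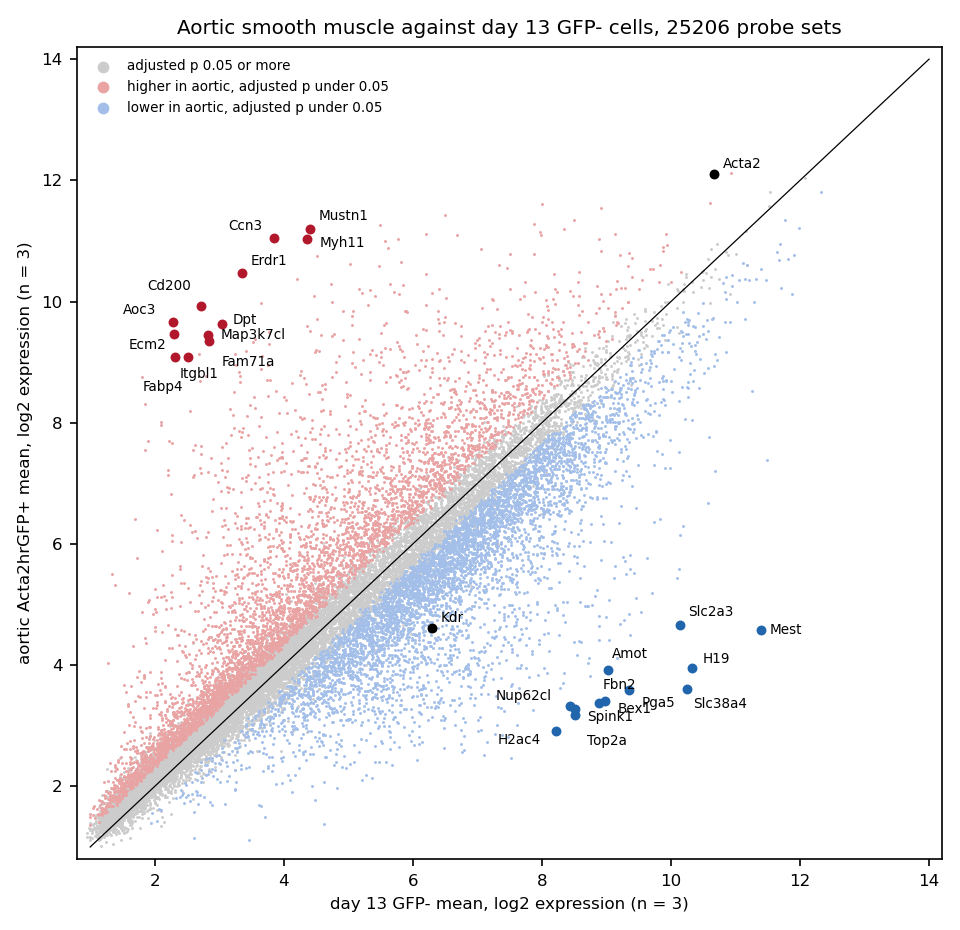
Mean log2 expression of 25206 probe sets in the 3 day 13 GFP- samples (x axis) and the 3 aortic samples (y axis), with the line of equality. Red and blue dots passed the threshold (5089 higher, 5467 lower in aortic cells), and the dark points are the 12 highest and 12 lowest named genes together with Acta2 and Kdr (black).

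Acta2 itself, the gene of the reporter, separated the groups by less than many other genes. Its level was 12.11, 12.14 and 12.03 in aortic samples 1, 2 and 3 and 10.16, 11 and 10.85 in GFP- samples 3, 5 and 6. The groups did not overlap, and the difference was 1.42 (SE 0.229, 2.68-fold, limma adjusted p = 0.000106). The GFP- mean of 10.67 lay above those of day 5 (5.93) and day 0 (7.01). The GFP+ cells of day 13, at a mean of 11.32, did not pass the test against the GFP- cells (difference 0.65, limma adjusted p = 0.151, and 0.0843 with the number as a block). Kdr, a receptor for vascular endothelial growth factor used for the day 5 sort, was 4.47, 4.41 and 4.94 in the aortic samples and 6.72, 6.12 and 6.05 in the GFP- samples, lower in the aorta by a difference of -1.69.

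The 12 highest differences ran from 6.52 to 7.38. Aoc3, a copper-dependent amine oxidase of the smooth muscle surface, was 9.91, 9.61 and 9.45 in the aortic samples against 2.31, 2.3 and 2.22 in the GFP- samples, a difference of 7.38 (SE 0.13, 167-fold, adjusted p = 4.16e-15). Cd200, a membrane glycoprotein that restrains myeloid cells, differed by 7.21, and Ccn3, a secreted matricellular protein, by 7.19. Itgbl1 (6.76), Ecm2 (7.16) and Dpt (6.58) encode extracellular proteins, and Fabp4 (6.56) is a fatty acid carrier. Erdr1 (7.11), Mustn1 (6.79), Map3k7cl (6.62) and Fam71a (6.52) completed the 12 together with Myh11. None of the 12 passed the test between GFP+ and GFP- cells, with or without the block, with differences of -0.07 to 0.54. That test called only 4.53% of all probe sets, or 7.13% with the block, so none of 12 is near the general share. Of the 12, Fabp4 varied most among aortic samples, at 9.61, 9.6 and 8.03.

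Contractile genes were higher almost as a whole. Of 24 measured genes on the contractile apparatus list, 22 were higher in the aortic cells, 1 was lower and 1 did not pass. The median difference was 2.38. The list also holds Mustn1, which is not itself a part of the actin and myosin apparatus. Myh11, the smooth muscle myosin heavy chain and the most specific marker of the lineage, was 11.01, 10.97 and 11.11 in the aortic samples and 4.3, 4.34 and 4.45 in the GFP- samples. All 3 aortic samples were far above the culture, by 6.67 (SE 0.15, 102-fold, limma adjusted p = 5.12e-14). Cnn1, calponin, an actin-binding inhibitor of myosin, was 10.92, 10.85 and 10.89 against 4.93, 6.01 and 5.93, a difference of 5.27. Synpo2 (5.72), an actin-bundling protein of the Z-line-like dense bodies, Lmod1 (4.64), an actin filament nucleator, and Ppp1r14a (3.81), an inhibitor of myosin phosphatase, followed. The aortic level of all 24 genes lay in the top 25% of probe sets, and so did that of 15 of them in the GFP- cells.

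The size of the difference varied within the list. Synpo2, Myh11 and Mustn1, with GFP- means of 3.77, 4.36 and 4.41, differed by more than 5, and Cnn1 did so from a higher GFP- level. Acta2 (1.42), Actn1 (1.02), Cald1 (0.8) and Vcl (0.51), which the GFP- cells held at 9.55 or above on average, differed by under 1.5. Synm (1.79), an intermediate filament protein, and Ppp1r12b (1.23), a myosin phosphatase subunit, were also low in the GFP- cells (4.59 and 4.95) but differed by less than Myh11. Tpm1, a tropomyosin, did not pass (0.21). Pdlim3, a scaffold of the actin-titin lattice, was the 1 lower member at -0.44, and this call turned to 0.16 after cyclic loess scaling and was lost without any 1 of GFP- samples 3 or 5 or aortic samples 2 or 3 (-0.35 to -0.46, adjusted p 0.0522 to 0.1). Des, the muscle intermediate filament desmin, was called at 0.92 but not without aortic sample 2 (0.79, adjusted p = 0.0549). Between the day 13 sorts 4 of the 24 genes were higher and 1 lower in the GFP+ cells, or 5 higher with the block, which added Mylk, the myosin light chain kinase (0.8, limma adjusted p = 0.00729). Myl9, the regulatory myosin light chain, went from 8.0 in the GFP- cells over 9.22 in the GFP+ cells to 11.61 in the aorta.

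**Figure D2:**
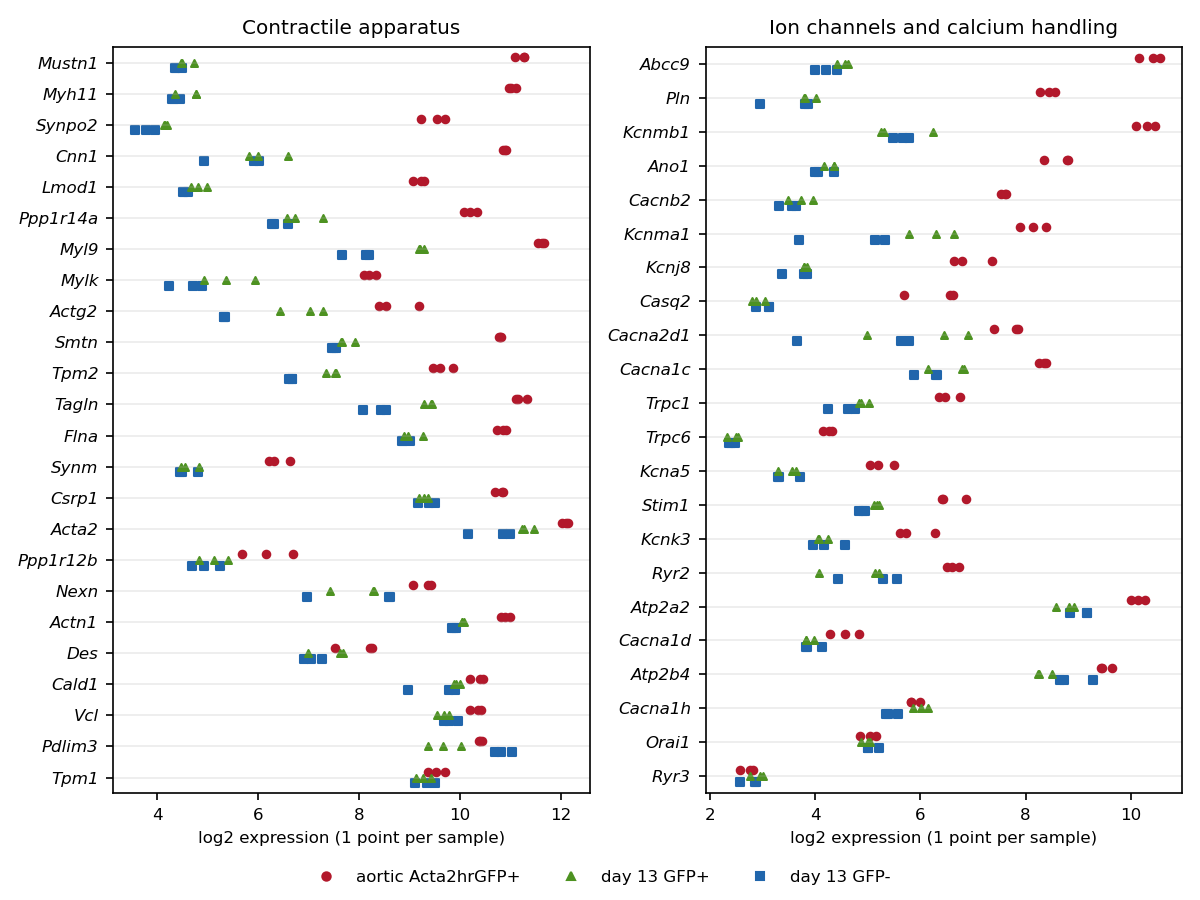
Log2 expression (x axis) of the 24 contractile genes (left) and 22 ion channel and calcium handling genes (right), 1 symbol per sample for aortic (red circles), day 13 GFP+ (green triangles) and day 13 GFP- cells (blue squares). In Myh11 the aortic samples sit at 10.97 to 11.11 and the GFP- samples at 4.3 to 4.45, while in Tpm1 the aortic samples (9.37 to 9.7) and GFP- samples (9.11 to 9.51) overlap.

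The CArG box, a 10-base site that SRF binds (2 C, 6 A or T, 2 G), was looked for in the 250 bases before each gene start of RefSeq on GRCm38.p6. The box is symmetric, so a search of either strand finds the same sites. It was present in 439 of 27025 genes (1.62%) and in 2 of the 20 contractile genes with a window (10%), Myl9 and Vcl. The contractile genes Tagln and Myh11 have no window in the table used. Both matches are shown because they are the only list members with the motif, Myl9 at chr2:156775253-156775362 and Vcl at chr14:20929148-20929230, both on the plus strand. They are printed 5′ to 3′, with the box in capitals.
Myl9: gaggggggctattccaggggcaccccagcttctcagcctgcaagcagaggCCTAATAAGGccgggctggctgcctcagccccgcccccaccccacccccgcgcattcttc
Vcl: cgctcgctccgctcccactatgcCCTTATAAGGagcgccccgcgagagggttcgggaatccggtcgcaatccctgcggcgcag

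In Myl9 the box lies 161 to 152 bases before the start and in Vcl 227 to 218 bases before it. The RNA differences of these genes were 3.62 and 0.51. A match describes the letters in this window only. The share of 10% was not particular to the contractile list. The box was present in 3 of 17 cardiac muscle genes (17.6%) and 2 of 13 fetal growth and imprinted genes (15.4%). Most of the gene lists held none.

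Of 26 transcription regulators of smooth muscle and its precursors, 14 were higher and 4 lower in the aortic cells, with a median of 0.57. Over all probe sets 20.2% were higher and 21.7% lower, so lower calls were not more frequent among these regulators. Myocd, the SRF coactivator myocardin, was 9.41, 9.14 and 9.18 in the aorta and 6.95, 7.09 and 6.87 in the GFP- cells, higher by 2.27 (SE 0.147, 4.83-fold, limma adjusted p = 4.76e-09). It was lower in the GFP+ cells than in the GFP- cells (5.53, difference -1.44, adjusted p = 3.34e-05), so the 3 groups stood in the order aortic, GFP-, GFP+. Klf4, a zinc finger factor that represses contractile genes, was 9.16, 8.77 and 8.55 against 4.86, 5.0 and 4.55, a difference of 4.02. The forkhead genes Foxc1 (3.53) and Foxc2 (2.24) and the T-box gene Tbx18 (2.88), which marks mural cells and the epicardium, were higher. Srf (0.69), Mrtfa (0.69) and Mrtfb (0.45) were higher by less, and Mrtfb was not called without GFP- sample 3 (0.34, adjusted p = 0.0585).

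The 4 lower regulators were Meox1, Tbx20, Hand2 and Klf5. Meox1, a homeobox gene of somitic and trunk mesoderm, was 4.46, 4.65 and 5.04 in the aorta against 7.38, 7.74 and 7.67 in the GFP- cells, lower by a difference of -2.88. Tbx20 (-2.66) and Hand2 (-2.2), of the heart and lateral mesoderm, and the zinc finger gene Klf5 (-1.58) differed by less. Meox2, the partner of Meox1, was called higher at 2.08, but GFP- sample 3 at 2.88 lay far below samples 5 and 6 at 5.7 and 5.64. Without that sample the difference was 1.15 and no longer called (adjusted p = 0.165), and leaving out any aortic sample also ended the call (adjusted p 0.0533 to 0.0862). Of the 8 regulators that did not pass, Gata6 differed by 0.28 and Tcf21 by 0.1.

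Genes of excitability and calcium handling were higher in 20 of 22 cases and lower in none, with a median of 1.91. Abcc9, the sulfonylurea receptor subunit of vascular potassium channels, was 10.42, 10.16 and 10.56 in the aortic samples against 3.99, 4.2 and 4.41 in the GFP- samples (6.18, 72.4-fold, limma adjusted p = 7.5e-14). Kcnj8, the pore subunit that pairs with it, differed by 3.26. Kcnmb1, the smooth muscle beta subunit of the large calcium-activated potassium channel, was 10.46, 10.09 and 10.3 against 5.79, 5.67 and 5.47 (4.64), and its pore gene Kcnma1 differed by 3.43. Pln, phospholamban, a brake on the calcium pump, differed by 4.88, and Ano1, a calcium-activated chloride channel, by 4.51. Cacna2d1, a calcium channel subunit, was 3.65 in GFP- sample 3 but 5.63 and 5.78 in samples 5 and 6, and its difference of 2.67 was 1.99 without sample 3. The call of Cacna1h (0.45) ended without GFP- sample 5 or 6 or aortic sample 1 (0.39 to 0.42). Orai1 and Ryr3 did not pass, at -0.06 and -0.05.

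Receptors and enzymes that set vessel tone showed the same shape, with 21 of 23 higher, none lower and a median of 2.16. In the nitric oxide and cyclic GMP pathway, Gucy1a1, a subunit of the nitric oxide receptor, was 9.67, 9.54 and 9.61 against 4.87, 5.04 and 5.27 (4.55, 23.4-fold). Its partner Gucy1b1 differed by 2.22, the kinase gene Prkg1 by 0.73, and Mrvi1, which links that kinase to calcium stores, by 4.54. The phosphodiesterases Pde5a (3.42) and Pde3a (3.23), which degrade cyclic nucleotides, were higher too. Ptgis, prostacyclin synthase, differed by 3.97, P2rx1, an ATP-gated channel, by 3.93, and Npr1, the natriuretic peptide receptor, by 3.61. Ednrb, an endothelin receptor, and Htr2b, a serotonin receptor, did not pass (-0.37 and -0.12). Avpr1a, a vasopressin receptor, lost its call (0.75) without GFP- sample 5 or 6 or aortic sample 1 or 2 (0.43 to 0.79).

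MicroRNA genes, which give short RNAs that repress messenger RNAs, were measured through their hairpin precursors. The sets below were chosen after their values were seen. Over all 529 microRNA hairpin genes 100 were higher and 52 lower, beside 20.2% and 21.7% of all probe sets. Their median difference was 0.14. In the Mir23a cluster, Mir23a was 6.92, 7.85 and 8.04 in aortic samples 1, 2 and 3 and 3.69, 3.9 and 3.96 in GFP- samples 3, 5 and 6, a difference of 3.75. Mir27a differed by 3.34 and Mir24-2 by 2.0, with aortic sample 1 lowest in all 3 genes. In the related Mir23b cluster Mir27b differed by 3.07, Mir23b by 2.28 and Mir24-1 by 2.06. Mir145a (1.53) and Mir143 (1.09), which are bound up with the contractile state, were higher by less.

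Mature sequences of both clusters are shown because they share seeds, the bases that pair with a target. They are from RefSeq on GRCm38.p6, written 5′ to 3′, with the seed, bases 2 to 8, in capitals. The miR-23a-3p sequence lies at chr8:84208563-84208583, miR-27a-3p at chr8:84208727-84208747 and miR-27b-3p at chr13:63300760-63300780. The same miR-24-3p is given for chr8:84208875-84208896 and chr13:63301251-63301272, and all are on the plus strand.
mmu-miR-23a-3p: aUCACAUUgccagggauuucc
mmu-miR-27a-3p: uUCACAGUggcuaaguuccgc
mmu-miR-27b-3p: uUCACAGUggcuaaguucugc
mmu-miR-24-3p: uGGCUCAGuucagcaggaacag

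The miR-27a and miR-27b seeds are the same, UCACAGU, and that of miR-23a differs from it. These hairpin probe sets measure precursor RNA on a gene array, and mature microRNA was not measured.

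The 12 lowest named genes had high levels in the culture. Slc38a4, an amino acid transporter that is imprinted, was 3.15, 3.64 and 4.02 in the aortic samples against 9.91, 10.5 and 10.34 in the GFP- samples (-6.64, 100-fold, limma adjusted p = 1.05e-12). Slc2a3, a glucose transporter of embryonic cells, differed by -5.48, Bex1 by -5.56, the replication-dependent histone gene H2ac4 by -5.32, Nup62cl by -5.12 and Amot, an angiomotin of cell junctions, by -5.1. Pga5, a pepsinogen of the stomach, was 3.56, 3.48 and 3.75 against 9.26, 9.38 and 9.41 (-5.76). It was also lower in the GFP+ than in the GFP- cells, by -4.01 (adjusted p = 3.66e-09). Mest, H19, Fbn2, Top2a and Spink1, described with their groups, completed the 12.

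Growth genes of fetal life were lower in the aortic cells. Of 18 measured fetal growth and imprinted genes, 16 were lower, 1 was higher and 1 did not pass, with a median of -3.53. Mest, a paternally expressed gene of embryonic mesoderm, was 4.16, 4.67 and 4.91 in the aortic samples against 11.19, 11.51 and 11.51 in the GFP- samples, a difference of -6.82 (SE 0.229, 113-fold, limma adjusted p = 3.04e-12). H19, the maternally expressed noncoding RNA beside Igf2, was 4.13, 3.48 and 4.27 against 10.16, 10.45 and 10.37 (-6.37), and Igf2, a fetal growth factor, differed by -3.91. Peg3 (-4.1), Plagl1 (-3.78) and Peg10 (-3.58) are further paternally expressed genes, and Igf2bp1 (-4.62) and Igf2bp3 (-4.11) are RNA-binding proteins of the embryo. Grb10, an imprinted brake on insulin signalling, was the 1 higher member, at 6.94 in the aorta against 4.62 (2.32). Cdkn1c, an imprinted inhibitor of cell division, did not pass (0.13). Ndn lost its call (-0.55) without GFP- sample 3 or 6 or aortic sample 3 (-0.33 to -0.54). Between the day 13 sorts 5 of the 18 were lower and 1 higher in the GFP+ cells, or 5 and 3 with the block.

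The imprinted Dlk1-Dio3 region, which holds a long noncoding transcript with many microRNAs, was chosen after values were seen. Dlk1, a membrane Notch ligand homologue, was 5.01, 5.03 and 4.2 in the aorta against 6.96, 7.18 and 7.61, and the noncoding genes Meg3 (-1.96) and Rian (-2.86) were lower too. Dio3 (0.24) and Rtl1 (-0.23) did not pass. Of the 51 microRNA hairpin genes there, 19 were lower, 1 was higher and the median was -0.5. Mir453 was 4.26, 4.05 and 3.78 against 6.34, 7.44 and 7.19 (-2.96), and Mir485 differed by -2.19 and Mir382 by -2.02. The 3 GFP- samples were higher than every aortic sample in these genes. In the GFP+ cells 14 of the 51 were higher than in the GFP- cells (19 with the block) and none lower. Between the sorts 4.53% of all probe sets were called in either direction, or 7.13% with the block. Mature sequences of these 3 hairpins, the lowest of the region, are shown with the seed in capitals, at chr12:109735669-109735692, chr12:109734946-109734967 and chr12:109733781-109733802 on the plus strand.
mmu-miR-453: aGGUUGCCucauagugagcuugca
mmu-miR-485-3p: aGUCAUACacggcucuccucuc
mmu-miR-382-5p: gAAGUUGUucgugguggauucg

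**Figure D3:**
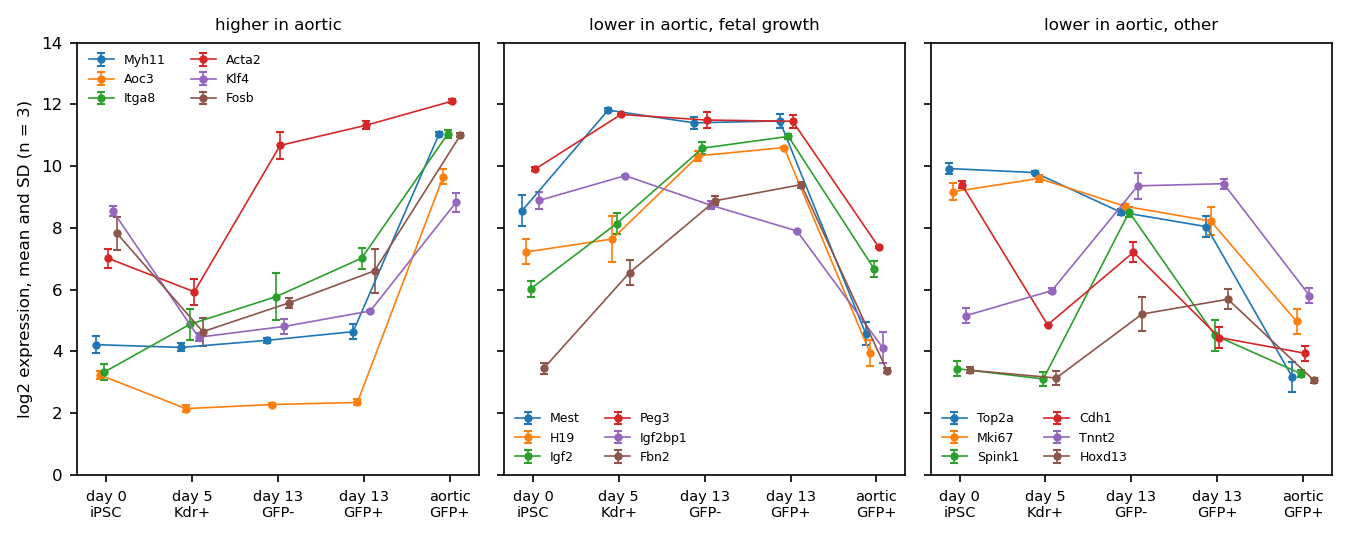
Log2 expression (y axis, mean and SD of 3 samples) of 18 genes in the 5 groups of the series. Lines join the values of 1 gene and imply no order. Mest, H19 and Peg3 stay at 10.33 or above in both day 13 sorts and lie at 3.96 to 7.39 in the aorta.

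The aortic cells had lower levels of cell division genes. All 29 measured genes of DNA replication and mitosis were lower, with a median of -2.8, and 11 of them (16 with the block) were also lower in the GFP+ than in the GFP- cells. Top2a, the topoisomerase of mitosis, was 2.85, 2.94 and 3.73 in the aortic samples and 8.4, 8.58 and 8.54 in the GFP- samples (-5.33, 40.4-fold, limma adjusted p = 1.51e-11). Mki67, the Ki-67 antigen, was 4.53, 5.3 and 5.09 against 8.6, 8.76 and 8.73 (-3.73). Without detection calls, its aortic level is not shown to lie above background. Ccna2 (-4.47), Plk1 (-4.21) and Cdk1 (-4.06) were the next in size after Top2a. Pcna, the sliding clamp, was lowest of the list in size at -0.57 and turned to 0.13 after cyclic loess scaling. Of 10 inhibitors of cyclin-dependent kinases and G1 cyclins, 5 were lower and 2 higher, and Cdkn1a, the p21 inhibitor that p53 induces, was lower at -1.55.

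Genes of ribosome production were lower in 12 of 16 cases and higher in 1, with a median of -0.99. Npm1, a nucleolar chaperone, was 6.07, 6.41 and 5.68 against 7.48, 7.67 and 7.68 (-1.56), and Fbl, the methyltransferase of small nucleolar RNPs, differed by -1.81. Ncl lost its call (-0.51) without GFP- sample 5 or 6 or aortic sample 3 (-0.39 to -0.4) and turned to 0.1 after cyclic loess. Of 20 nuclear genes of oxidative phosphorylation 10 were lower and none higher (median -0.4), but after cyclic loess 2 were lower and 5 higher, and leaving out 1 sample gave 6 to 11 lower. Of 12 glycolysis genes 6 were lower and 1, Pfkp, a phosphofructokinase, was higher (0.76), with a median of -0.81. The lower ones held Pdk1 (-2.06), Ldha (-1.83) and Slc2a1 (-1.71), the glucose transporter. GFP- sample 3 was above both of its fellows in all 12, by a median of 0.91. Without that sample 5 were lower and 2 higher, with a median of -0.48. Pgk1 lost its call (-1.08) without GFP- sample 3 or aortic sample 3 (-0.73 and -0.67).

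Most epithelial and endoderm genes were lower in the aortic cells than in the GFP- cells. Of 16 epithelial genes 13 were lower in the aortic cells and 1 higher, and of 17 endoderm genes 12 were lower and 1 higher. Cdh1, E-cadherin, was 3.66, 4.09 and 4.08 in the aortic samples against 7.57, 7.14 and 6.92 (-3.27), and in the GFP+ cells it stood at 4.45, lower than in the GFP- cells. Spink1, a protease inhibitor of the gut and pancreas, was 3.2, 3.25 and 3.4 against 8.42, 8.69 and 8.43 (-5.23). Gata4 (-4.08), a factor of endoderm and heart, Apob (-3.8), Apoa1 (-2.81) and Foxa1 (-2.22) are liver and foregut genes. Alb, albumin, was at 2.41 in the GFP- cells and did not pass (0.01). Between the sorts, 13 of the endoderm genes and 10 of the epithelial genes were lower in the GFP+ cells (13 and 12 with the block), and none was higher. Against the GFP+ cells the aortic cells were lower in 2 and higher in 1 of the 17 endoderm genes (median -0.02), and lower in 6 and higher in 2 of the 16 epithelial genes (median -0.23). The mean linear level of the epithelial list, as log2, was 4.79 to 5.0 in the aortic samples and 6.51 to 6.65 in the GFP- samples, and that of the endoderm list 4.24 to 4.42 and 6.45 to 6.61. The part of such cells in the other differences was not tested.

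Cardiac muscle genes were lower in 8 of 18 cases and higher in 1 (median -0.67). Tnni1, a slow troponin, was 4.43, 5.0 and 4.05 against 9.38, 9.26 and 9.45 (-4.87), and Tnnt2, cardiac troponin T, differed by -3.55. Ttn, titin, was 5.52 in GFP- sample 3 but 7.83 and 7.91 in samples 5 and 6, and Myh7 was 2.89 against 6.05 and 5.49. Without sample 3 their differences became -4.19 and -3.24 in place of -3.41 and -2.28, and without sample 5 that of Myh7 was -1.66. Tbx5, a factor of the heart and forelimb, was the 1 higher member (1.18). Myl4 and Myl7, atrial light chains, were also lowest in GFP- sample 3, and differed by -2.74 and -2.49, or by -3.46 and -3.2 without it.

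Matrix genes were called in both directions, beside 20.2% of all probe sets higher and 21.7% lower. Higher calls outnumbered lower ones in each matrix list. Lower calls among elastic fibre, collagen, proteoglycan and matricellular genes did not exceed the share of all probe sets. Of 20 elastic fibre genes 12 were higher and 3 lower (median 1.08). Eln, elastin, was 9.04, 9.21 and 9.25 in the aortic samples against 4.7, 5.81 and 6.02 (3.65, 12.6-fold, limma adjusted p = 5.34e-07). Mfap5 (5.88), Fbln5 (3.75) and Ltbp4 (3.5) are partners of the elastic fibre, and Loxl1 (2.02) cross-links it. Fbn2, the fibrillin of embryonic microfibrils, was 3.46, 3.29 and 3.36 against 8.94, 8.72 and 8.98 (-5.51). Lox did not pass (0.14), and without GFP- sample 3 it was lower (-0.58, adjusted p = 0.0451). In the GFP+ cells 7 of the 20 were higher than in the GFP- cells (11 with the block) and none lower.

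Of 25 collagen genes 12 were higher and 4 lower, with a median of 0.58, against 10 higher (14 with the block) and 0 lower in the GFP+ cells. Col15a1, a basement membrane collagen, was 8.13, 8.01 and 8.07 against 3.91, 4.44 and 4.59 (3.76), and Col6a2 (2.65) and Col14a1 (2.31) were higher. Col11a1, of cartilage and embryonic fibrils, was 3.45, 3.8 and 3.1 against 6.06, 6.93 and 7.14 (-3.26). Col12a1, a fibril-associated collagen, was 7.08 in GFP- sample 3 and 9.43 and 9.77 in samples 5 and 6, and differed by -2.43, or by -3.27 without sample 3. The major fibrillar genes Col1a1 (-0.64), Col3a1 (0.58) and Col1a2 (0.57) did not pass. Without GFP- sample 3 Col1a1 was called lower (-1.04), and without GFP- sample 6 Col3a1 was called higher (0.91).

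Small proteoglycans were high in the aorta, with 10 of 16 higher and 2 lower (median 1.01). Prelp, a leucine-rich proteoglycan, was 11.38, 11.22 and 11.2 against 5.11, 5.56 and 5.79 (5.78, 54.9-fold). Dcn, decorin, was 9.54, 10.52 and 10.35 against 3.75, 5.82 and 6.05. Its difference of 4.93 was 4.2 without GFP- sample 3, the lowest of the 3. Ogn, osteoglycin, was 11.3, 11.1 and 11.06 in the aorta but 4.87, 9.42 and 9.64 in the GFP- samples, so sample 3 set most of its difference of 3.18 (adjusted p = 0.0175). Without that sample the difference of Ogn was 1.62 and not called (adjusted p = 0.071), and without sample 5 or 6 it was 3.9 or 4.01. Aspn, asporin, went from 3.34 to 2.02 without sample 3 and to 4.08 without sample 6. Lum, lumican, went from 2.71 to 1.96 without sample 3, and both stayed past the threshold. Vcan, versican, a proteoglycan of embryonic matrix, was lower (-1.91). Between the day 13 sorts 3 of the 16 genes were higher in the GFP+ cells, and 9 with the block, which added, besides Prg4 and Fmod, Dcn (1.14, limma adjusted p = 0.017), Ogn (1.13), Aspn (1.4) and Lum (1.47).

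Of 19 matricellular genes 13 were higher and 3 lower (median 1.91). Tnxb, tenascin-X, was 8.25, 8.54 and 7.91 against 2.97, 3.32 and 3.2 (5.07), and Sparcl1 was 11.11, 11.23 and 10.93 against 7.91, 8.01 and 8.03 (3.11). Postn, periostin, was 5.73 in GFP- sample 3 and 9.22 and 9.69 in samples 5 and 6. Its call (1.99) ended without that sample (0.75, adjusted p = 0.179) and without any aortic sample (1.91 to 2.08, adjusted p 0.0736 to 0.098), and without GFP- sample 6 it was 2.73. Thbs2 likewise went from 2.43 to 1.61 without GFP- sample 3. Ccn4 (-1.93) and Fn1 (-0.7), fibronectin, were lower, but Fn1 turned to 0.08 after cyclic loess.

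Among matrix proteases and their inhibitors 12 of 19 were higher and 5 lower (median 1.22). Timp3, a matrix-bound inhibitor, was 10.58, 10.62 and 10.61 against 7.13, 7.45 and 7.43 (3.27), while Mmp2 (-1.52), Mmp9 (-2.46), Mmp11 (-1.82) and Mmp14 (-1.47) were lower. Mmp3, stromelysin, was 2.83 in aortic sample 1 but 6.53 and 6.45 in samples 2 and 3, and its difference of 2.74 was 3.96 without sample 1 and 2.12 and 2.15 without sample 2 or 3. Integrins and basement membrane genes were 12 higher and 6 lower of 20, or 9 to 11 higher and 5 to 6 lower on leaving out 1 sample. Itga8, an integrin of mesenchyme, was 11.12, 10.89 and 11.09 against 4.9, 6.14 and 6.27 (5.26), and Nid2 and Lamb1, nidogen-2 and a laminin chain, were lower (-4.24 and -3.81). Itga7, a laminin receptor of muscle, was 7.58 in GFP- sample 3 and 5.65 and 5.39 in the others, and its difference of 2.15 was 2.84 without it.

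**Figure D4:**
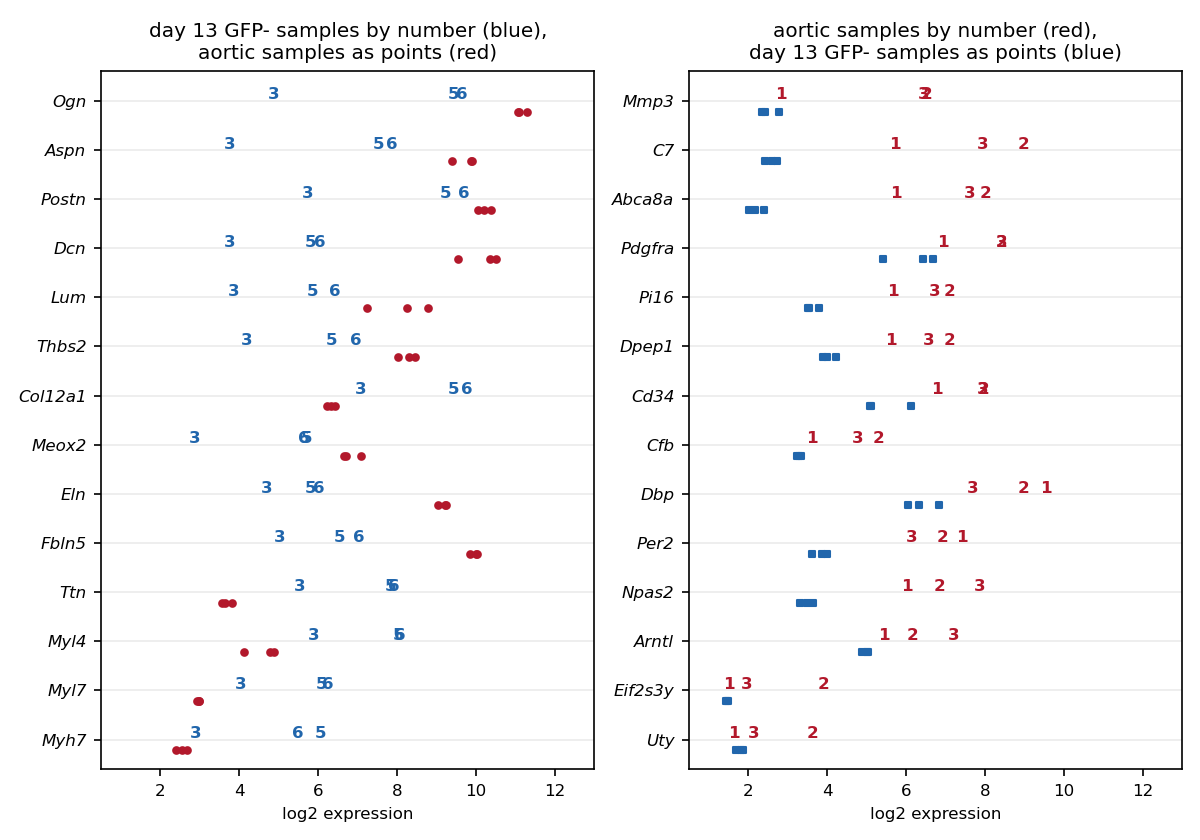
Log2 expression (x axis) of genes in which 1 sample of a group stood apart. Left, numbers mark day 13 GFP- samples 3, 5 and 6 and red points the aortic samples. Right, numbers mark aortic samples 1, 2 and 3 and blue squares the GFP- samples. Sample 3 is the lowest GFP- sample in all 14 genes on the left (Ogn at 4.87 against 9.42 and 9.64).

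Signalling genes were mixed in direction. Of 24 genes of TGF-beta and bone morphogenetic protein signalling 11 were higher and 9 lower, with a median of 0.06. The receptors Tgfbr2 (1.89), Tgfbr3 (2.15) and Acvrl1 (1.45) were higher, the ligand Tgfb1 (-1.16) lower and Tgfb3 (2.19) higher, and Bmper, a binder of these ligands, was lower (-3.17). Of 12 Notch pathway genes 6 were higher and 3 lower. The Notch targets Heyl and Hey2 were higher (3.83 and 2.96), with Hey2 at 9.54, 9.33 and 9.43 against 6.7, 6.32 and 6.39, and the mural cell receptor Notch3 differed by 1.66. Hey1 was lower (-1.08). In the insulin-like growth factor axis 3 of 11 genes were higher and 3 lower, near the 20.2% and 21.7% of all probe sets. Igfbp7 was at 11.49, 11.59 and 11.53 against 8.98, 8.99 and 8.74 (2.63). Igfbp2 was at 4.75, 5.58 and 5.97 against 10.53, 9.85 and 9.88 (-4.66). Igfbp3 (-0.92) lost its call without GFP- sample 5 or 6 or aortic sample 1 or 3 (-0.62 to -0.87).

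Hox genes, which record position along the body axis, were split by paralog group, at low levels in both groups. Of 11 genes of paralogs 1 to 4, 6 were higher and none lower, and of 15 genes of paralogs 5 to 9, 10 were higher and none lower. Of 12 genes of paralogs 10 to 13, none was higher and 6 were lower, a count of 3 to 6 on leaving out 1 sample. Hoxa3 was 6.12, 6.6 and 6.27 in the aorta against 3.51, 3.97 and 3.46 (2.68), and Hoxa5 was 6.14, 5.89 and 5.46 against 2.94, 3.62 and 3.39 (2.51). Hoxd13, the most posterior gene of its cluster, was 3.09, 2.98 and 3.15 against 4.57, 5.5 and 5.55 (-2.13). Of all 38 measured Hox genes only Hoxa3 had an aortic mean in the top 25% of probe sets (6.33), and none did in the GFP- cells.

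All 22 genes of the immediate early and dissociation stress list were higher in the aortic cells, with a median of 2.91. Fosb was 10.98, 11.06 and 10.95 in the aortic samples against 5.45, 5.76 and 5.5 (5.43, 43.2-fold, limma adjusted p = 1.29e-09), and Fos was 11.26, 11.14 and 10.92 against 6.51, 7.05 and 6.5 (4.41). Nr4a1 (4.92), Atf3 (4.91), Egr1 (3.55) and the heat shock gene Hspa1a (4.85, or 4.09 without GFP- sample 3) followed. Zfp36 (3.81) and Egr2 (3.34) held a CArG box in the same window, 2 of the 18 list members with one (11.1%). That share was 17.6% in the cardiac muscle list, and most lists held no box. Only Ccn1 and Klf6 of the 22 differed by under 1 (0.98 and 0.65). Aortic sample 3 was below both other aortic samples in 18 of the 22, by a median of 0.23. As general background, these genes respond quickly to enzymes, warming and sorting. The handling of tissue and cultures was not tested.

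The matches in the promoters of Zfp36 (chr7:28379229-28379336, minus strand) and Egr2 (chr10:67537444-67537553 and chr10:67537747-67537856, plus strand) are shown because both genes differed by over 3. They are printed 5′ to 3′ on the gene's strand, with the box in capitals.
Zfp36: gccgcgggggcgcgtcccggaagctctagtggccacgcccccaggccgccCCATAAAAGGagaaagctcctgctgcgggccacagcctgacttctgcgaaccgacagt
Egr2, first: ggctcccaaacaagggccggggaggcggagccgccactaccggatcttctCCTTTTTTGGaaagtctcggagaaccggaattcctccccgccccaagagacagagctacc
Egr2, second: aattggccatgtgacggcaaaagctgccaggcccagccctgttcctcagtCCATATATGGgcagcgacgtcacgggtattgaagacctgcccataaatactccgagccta

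Circadian clock genes were higher in 15 of 17 cases and lower in 1, with a median of 1.66. Nr1d1, the repressor Rev-erb alpha, was 10.34, 10.35 and 9.88 in aortic samples 1, 2 and 3 against 5.62, 5.19 and 5.19 in the GFP- samples (4.85). Per2, a repressor of the clock, was 7.41, 6.93 and 6.14 against 3.63, 3.88 and 3.99 (2.99), and Dbp, a clock output factor, was 9.54, 8.97 and 7.69 against 6.84, 6.06 and 6.33 (2.32). In Dbp and Per2 aortic sample 1 was highest and sample 3 lowest. The activators Npas2 (6.02, 6.84 and 7.86 in the aorta) and Arntl (5.43, 6.17 and 7.22) had the reverse order, lowest in sample 1 and highest in sample 3, and differed by 3.42 and 1.29. Cry1 was the 1 lower member (-0.99). The labels do not say at what time of day each sample was taken.

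Markers of other vessel cells were looked for in the aortic sort. Of 13 fibroblast and adventitia genes 12 were higher in the aortic cells and none lower (median 2.4). Dpt, dermatopontin, was 9.16, 10.11 and 9.62 against 3.35, 2.76 and 3.04 (6.58), and Abca8a was 5.75, 8.02 and 7.61 against 2.41, 2.18 and 2.02 (4.92, or 5.61 without aortic sample 1). In all 13 genes aortic sample 1 was below both other aortic samples, by a median of 1.22. The mean level of the list on a linear scale, as log2, was 7.58 to 8.58 in the aortic samples and 5.71 to 6.0 in the GFP- samples. Among matrix genes, Dcn, Mmp3 and Lum, which is on the fibroblast list, were lowest in aortic sample 1, while Ogn and Prelp were not. These genes are examples only, and how far fibroblast RNA bears on the matrix results was not tested.

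Of 16 macrophage and leukocyte genes 14 were higher and none lower (median 0.99), but their levels were low. On leaving out 1 sample 12 to 13 were higher. Ptprc, the pan-leukocyte antigen CD45, was 3.71, 3.34 and 3.63 in the aorta against 1.9, 1.87 and 1.98 (1.64), and Cd14 was 6.25, 7.44 and 5.49 against 2.98, 3.01 and 3.27 (3.31). The mean linear level of the list was 4.77 to 5.56 in the aortic samples and 4.13 to 4.2 in the GFP- samples. Complement genes were higher in 7 of 9 cases and lower in 2, with C1s1 at 7.72, 7.48 and 7.45 against 2.04, 2.3 and 1.2 (5.71). C7 was 5.72 in aortic sample 1 and 8.98 and 7.94 in samples 2 and 3 (4.95, or 5.87 and 4.24 without sample 1 or 2). Interferon and antigen presentation genes were higher in 14 of 21 cases and lower in 2, a count of 9 to 14 higher on leaving out 1 sample, with H2-D1 at 2.95 and Irf1 at 3.01.

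Of 17 endothelial genes 7 were higher and 3 lower (median 0.07), beside 20.2% and 21.7% of all probe sets. Against the GFP+ cells 10 were higher and 1 lower. Pecam1, the endothelial CD31 antigen, was higher in the aorta (8.29, 7.79 and 7.88 against 5.85, 5.41 and 5.32), as was Esam (3.02). Cdh5, VE-cadherin, was at 6.51 against 6.87 and did not pass (-0.36), and Tie1 did not pass either (-0.02). Mural and pericyte genes were higher in 9 of 11 cases, with Cspg4 at 8.67, 8.27 and 8.44 against 4.64, 5.02 and 5.4 (3.44), Pdgfrb at 2.03 and Rgs5 at 2.16. Adipocyte genes were higher in 6 of 10 cases and lower in none (median 0.43), with Fabp4 the largest at 6.56. The mean linear level of the adipocyte list, as log2, was 6.11 to 6.94 in the aortic samples and 3.56 to 3.71 in the GFP- samples. Adipoq (0.17) did not pass, and the call of Lep (0.46) ended without any 1 of the GFP- samples or aortic sample 3 (0.25 to 0.49). That of Ucp1 (0.4) ended without GFP- sample 5 or aortic sample 2 (0.31 and 0.26).

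Small nucleolar RNA genes, which guide the modification of ribosomal RNA, were lower in 51 of 99 cases and higher in 3, with a median of -0.9. In 95 of the 99 aortic sample 1 was below both other aortic samples. Without that sample 41 were lower and 11 higher, with a median of -0.39. Y-linked genes were at or near the floor in both groups except in aortic sample 2, where Eif2s3y was 3.91 against 1.51 and 1.97 in samples 1 and 3 and 1.43 to 1.49 in the GFP- samples. None of the 3 Y-linked genes passed the test with all samples. Without aortic sample 1 all 3 were called higher, Eif2s3y at 1.48 (limma adjusted p = 0.00539), Uty at 1.08 and Kdm5d at 0.86, and without sample 3 Eif2s3y (1.24) and Kdm5d (0.73) were. Xist, expressed from the inactive X, was 9.49, 9.11 and 9.77 in the aorta against 7.3, 8.87 and 8.63 in the GFP- samples (1.19, adjusted p = 0.00924).

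**Figure D5:**
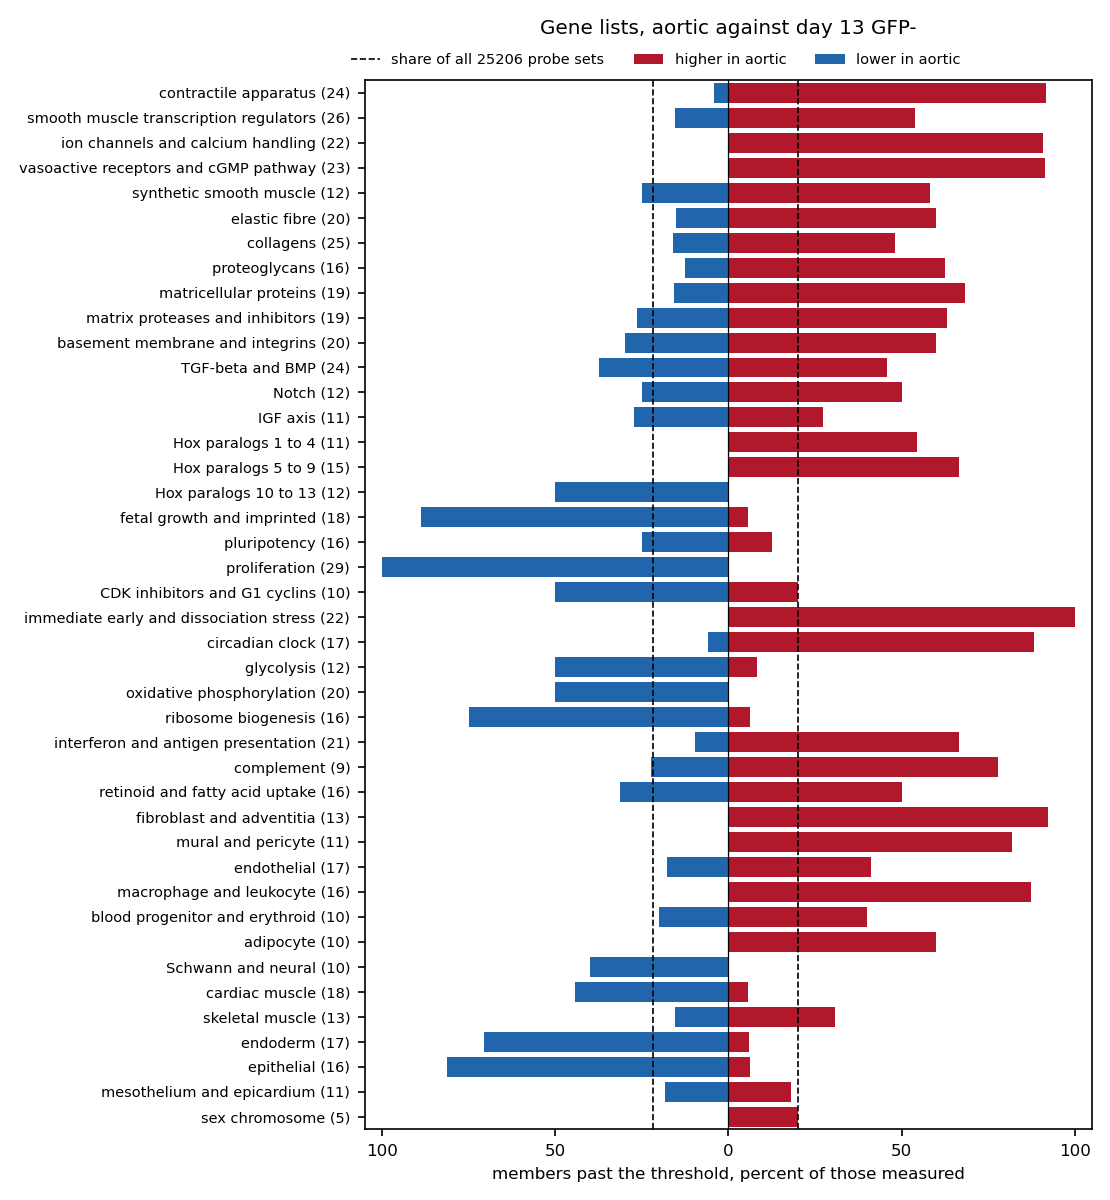
Members called higher (red, to the right) and lower (blue, to the left) in aortic cells, as a percent of the members measured in each of 42 gene lists (number in brackets), with the shares over all probe sets as dashed lines (20.2% higher, 21.7% lower). The immediate early list (22 of 22) and the proliferation list (29 of 29) reach the ends of the axis.

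Of 16 pluripotency genes 4 were lower and 2 higher (median 0.12), beside 21.7% and 20.2% of all probe sets. Sox2, a factor of stem cells and neural tissue, was 3.03, 3.18 and 3.2 in the aorta against 6.87, 5.93 and 6.09 (-3.16), and Pou5f1 did not pass (-0.15). Klf2, which is also a flow-responsive vascular gene, was the larger of the 2 higher members at 8.84, 8.7 and 8.66 against 4.32, 4.09 and 4.57 (4.41). In the retinoid and fatty acid list 8 of 16 were higher and 5 lower, with Fabp4 and Cd36 higher (6.56 and 3.42, the latter 2.82 without GFP- sample 3) and the retinoic acid genes Crabp2 (-3.23), Cyp26a1 (-2.82) and Aldh1a2 (-1.61) lower.

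Of 12 genes linked to the synthetic, non-contractile state of smooth muscle 7 were higher and 3 lower (median 0.92). S100a4, a calcium-binding protein, was 8.26, 7.29 and 7.44 against 2.84, 3.28 and 3.19 (4.56), and Mgp, an inhibitor of calcification, was 11.23, 11.53 and 11.29 against 7.54, 8.83 and 9.12 (2.85). Krt18, a keratin of simple epithelia that is also on the epithelial list, was lower (-3.69), as were Tpm4 (-0.97) and Myh9 (-0.91), a non-muscle tropomyosin and myosin. In all of these the 3 aortic values lay on one side of the 3 GFP- values.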

How the data were processed

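RNA was measured on 1-colour arrays. The deposited values are log2 expression per probe set, made by the authors with RMA, affy 1.36.1 and R 2.15.1 per the submitters' processing notes. That the scale is log2 was inferred from the range of values. The genome build was not stated in the sources used. No further scaling was applied. Sample medians were 4.084 to 4.294 and no pair of samples was identical. Arrays carry no read depth, so the number of samples limits the precision. Of 25206 probe sets, 23185 could be named from the platform annotation.

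A mean for each of the 5 groups was fitted to all 15 samples with limma 3.58.1 in R 4.3.3 (lmFit and eBayes, 10 residual and 5.09 prior degrees of freedom). Benjamini-Hochberg adjustment ran over all probe sets, and the threshold was 0.05. The fit was tested on simulated data. GFP+ and GFP- samples of 1 number deviated together from their group means (correlations 0.6, 0.4 and 0.4 for numbers 3, 5 and 6). Between numbers 5 and 6 the correlations were 0.35 and 0.28, and between number 3 and the others -0.42 to -0.5. The check therefore shows mainly that number 3 stood apart in both sorts. The number, taken from the labels, was also fitted as a block within day 13, chosen after seeing the data. Since the labels give no source of the triplicates, p-values measure the spread between these samples, which may be technical.

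Genes were named by this rule: Acta2 and Kdr; the 12 highest and 12 lowest differences past the threshold whose groups did not overlap, leaving out clone and predicted names; and from each of 42 gene lists up to 6 members with the largest differences and members that did not pass. The lists held 729 members, of which 45 were not matched. Members and lists were chosen with earlier results of these data known. The microRNA and small nucleolar RNA sets, the promoters of immediate early genes and list members beyond the largest 6 were chosen after values were seen. Promoter stretches show up to 50 bases on each side of a motif. Alternatives were other variance models, a minimum change of 1 on the log2 scale, other scalings, a filter on level and leaving out each sample.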

Additional observations from a re-analysis of the deposited data

Results flagged for a closer look

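The aortic level lay between those of the day 13 sorts, and differed from both by the test, in 19 probe sets, 16 of them named. In each, the aortic cells stood lower than one sort and higher than the other. Choosing probe sets this way fixes that the sorts differ and in which direction, so those differences are a description. Both aortic comparisons share the aortic samples, so the tested difference between them is that of GFP+ against GFP- cells, which is the value given for each gene. In 17 of the 19 the aortic cells were lower than GFP- and higher than GFP+ cells, and in 2 the reverse. Dpp4, a cell surface peptidase, had means of 3.61 in the aorta, 5.08 in GFP- and 2.7 in GFP+ cells, and its difference between the sorts was -2.38 (limma adjusted p = 3.06e-05). Atp8a1, a phospholipid flippase, had means of 6.22, 7.94 and 5.58 and a difference of -2.36. Egfr, the epidermal growth factor receptor, ran the other way, at 7.73 in the aorta, 7.1 in GFP- and 8.31 in GFP+ cells (1.21). Pdlim3, the contractile gene that was lower in the aorta than in GFP- cells, was at 10.4, 10.85 and 9.68 (-1.16), and its aortic direction against GFP- cells turned after cyclic loess. The differences of the endothelial genes Adgrl4 (-1.66) and Myct1 (-1.23) and of the peptidases Mme (-1.47) and Ctsc (-1.4) were of the same sign. Those of B4galnt2 (-1.28), Dkc1 (-1.24), Cgnl1 (-1.04), Mpzl2 (-0.97), Rab6b (-0.9), Pola1 (-0.9), Ing5 (-0.84) and Tle3 (-0.77) completed the named genes. Groups of 3 samples were not tested for single samples that stand apart.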

How the results depend on the processing

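The count of 10556 probe sets between aortic and GFP- cells was 8026 with only those groups fitted, 10396 with array weights, 10562 with a trended and robust variance, and 9195 to 10787 without 1 sample. Testing against a minimum change of 1 on the log2 scale gave 2124. The count of 9372 between aortic and GFP+ cells was 1716 with that minimum and 7897 to 9590 without 1 sample. Between the day 13 sorts the 1142 calls became 459 with only those groups fitted, 2945 with array weights, 31 with the minimum change and 653 to 1111 without 1 sample, 729 without GFP- sample 5 and 653 without GFP+ sample 6. With the sample number as a replicate block, chosen after seeing the data, 1798 probe sets were called. Median centring gave 10106 aortic calls, quantile normalization 9553 and cyclic loess 9213, with 42.9%, 46.2% and 52.1% of them higher against 48.2%. Limiting the test to 12603 probe sets above the median level gave 7874, 34.7% higher. The median of all differences was 0.041, -0.008 and 0.003 after the 3 scalings. Cyclic loess turned the sign of Pdlim3 (0.16), Fn1 (0.08), Sparc (0.51), Lamc1 (0.03), Itgav (0.12), Pcna (0.13), Sdha (0.2), Cox8a (0.34), Ndufs1 (0.28), Ncl (0.1) and Spint2 (0.42), and leaving out GFP- sample 3 that of Lox (-0.58; 0.53 without sample 6). The cause was not tested. Of 521 called genes, 22 to 32 lost their call without 1 sample and 240 under the minimum change. No paired analysis was possible between aortic and cultured cells because the aortic numbers 1, 2 and 3 and the culture numbers 3, 5 and 6 share only 1 number.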

Other observations

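Of 10 Schwann and neural genes 4 were lower in the aortic cells and none higher. Erbb3, a neuregulin receptor, was 3.57, 3.23 and 3.66 in the aortic samples against 5.97, 5.41 and 5.23 in the GFP- samples (-2.05). Stmn2, a neuronal tubulin-binding protein, did not pass (-1.6) but was called lower at -2.54 without GFP- sample 3. Of 13 skeletal muscle genes 4 were higher and 2 lower, beside 20.2% and 21.7% of all probe sets. Leaving out 1 sample gave 2 to 5 higher. Tnnt1, a slow troponin, was 4.27, 4.03 and 4.4 against 6.79, 7.27 and 7.1 (-2.83).

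Of 10 blood progenitor and erythroid genes 4 were higher and 2 lower, beside 20.2% and 21.7% of all probe sets. Runx1, a regulator of blood formation, was 5.51, 6.1 and 5.88 against 7.43, 7.07 and 7.02 (-1.34), and Alas2, the heme synthesis enzyme of red cells, differed by 1.38. Of 11 mesothelium and epicardium genes 2 were higher and 2 lower, near the 20.2% and 21.7% of all probe sets. The mesothelial markers Msln (0.19) and Upk3b (0.19) did not pass. Immunoglobulin genes, a set chosen after values were seen, were higher in 36 of 193 cases and lower in 2, with a median of 0.22, beside 20.2% and 21.7% of all probe sets. Aortic sample 1 stood apart in Ighg3, at 7.15 against 2.83 and 3.11 in samples 2 and 3, and in Ighg1 (4.85 against 3.12 and 3.14), neither of which passed.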
